A study of Mus musculus with 6 samples.

Results

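The fibroblast growth factor (FGF) system was followed through 10 of its genes in cells of the mouse Achilles tendon, with 1 single-cell RNA-seq library for each combination of cell sort and time. They were 5 secreted ligands (Fgf2, Fgf7, Fgf9, Fgf10 and Fgf18), 4 receptor tyrosine kinases (Fgfr1, Fgfr2, Fgfr3 and Fgfr4) and Fgfrl1, a receptor of the same family that lacks the kinase domain. They were chosen by symbol from the 33696 genes of the deposited count matrices, and all 10 were found. Levels are given as CPM, the molecule counts (UMIs) of a gene in a set of cells scaled to a total of 1000000 UMIs for that set. Where 3 values follow each other they are in the order uninjured, 7 dpi, 21 dpi.

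The mice were Gli1-CreERT2; Ai9, given tamoxifen by injection before any injury. Cre is driven from the Gli1 locus, so tdTomato marks cells that expressed Gli1 during the tamoxifen period together with their descendants, and not the cells in which Gli1 is transcribed at harvest. Cells positive (Gli1+) and negative (Gli1-) for the reporter were sorted from uninjured tendon and from tendon at 7 and 21 days after tenotomy (7 dpi and 21 dpi), a cut of the tendon that leads to ectopic cartilage and bone. The labels give 24 mice, 8 in each time group, and 1 library for each sort and time, and no label ties a cell to a mouse. There was therefore no replicate and no test of any difference. Intervals below are 95% intervals of counting error only (exact Poisson for a level, exact binomial for a ratio or a share), and a gene was counted as higher or lower where the CPM of the 2 libraries differed by at least 2-fold, the interval of the log2 ratio excluded 0, and the libraries together held at least 20 UMIs.

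After filtering, the libraries held 7057 to 10882 cells with median depths of 4218 to 9507 UMIs per cell. The Gli1+ uninjured library stood apart in that 53.8% of its cells were immune cells, against at most 11 immune cells in any other library. Comparisons between libraries were therefore made within mesenchymal cells (clusters named tendon stem cell-like, tenocyte-like, chondrocyte-like or bone-like, and unnamed clusters that had at least 100 CPM of Pdgfra or were divided from a mesenchymal one), of which there were 2462, 6838 and 8044 (Gli1+) and 5842, 7998 and 7534 (Gli1-) at uninjured, 7 dpi and 21 dpi. The labels give equal numbers of both sexes, but the cells were not mixed so in each library. By Xist and Y-linked genes, mesenchymal cells that could be scored were almost all male in the Gli1- uninjured library (4043 male, 0 female) and at 7 dpi (4923 male and 1 female in Gli1+, 6022 and 1 in Gli1-), and almost all female at 21 dpi (7467 female and 8 male in Gli1+, 7072 and 4 in Gli1-). The Gli1+ uninjured library held both (1498 female, 596 male). The uninjured comparison of the sorts therefore also differed in sex. Sex and time could be separated for Gli1+ cells and for Gli1- cells at 7 dpi, but cannot be told apart in the Gli1- comparison of 21 dpi with uninjured or in either comparison of 21 dpi with 7 dpi.

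Secreted FGFs bind their receptors together with heparan sulfate chains and signal mainly through the MAP kinase cascade, which in turn induces feedback inhibitors such as the Sprouty proteins. Fgf7 and Fgf10 are made by stromal cells and act on the epithelial splice form of Fgfr2, Fgf9 and Fgf18 are best known from cartilage, bone and lung, and Fgf2, which has no signal peptide, is held in the matrix. Fgfr3 restrains the growth of cartilage, and Fgfr1 is the main receptor of fibroblasts. The 3' libraries used here do not separate splice forms.

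The promoters of the 4 ligands that met the rule in mesenchymal cells at 7 dpi are shown. Each is the 250 bases before the annotated start in RefSeq (GRCm38.p6), 5′ to 3′ on the strand of the gene, with matches to the motifs searched in capitals. The windows are chr3:37348403-37348652 (+) for Fgf2, chr14:58072436-58072685 (+) for Fgf9, chr11:33147401-33147650 (-) for Fgf18 and chr2:126034408-126034657 (+) for Fgf7.
Fgf2: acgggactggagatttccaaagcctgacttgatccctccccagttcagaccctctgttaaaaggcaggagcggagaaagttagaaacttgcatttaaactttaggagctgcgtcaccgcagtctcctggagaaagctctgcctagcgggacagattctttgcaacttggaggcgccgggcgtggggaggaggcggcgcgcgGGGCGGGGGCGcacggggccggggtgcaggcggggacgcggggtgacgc
Fgf9: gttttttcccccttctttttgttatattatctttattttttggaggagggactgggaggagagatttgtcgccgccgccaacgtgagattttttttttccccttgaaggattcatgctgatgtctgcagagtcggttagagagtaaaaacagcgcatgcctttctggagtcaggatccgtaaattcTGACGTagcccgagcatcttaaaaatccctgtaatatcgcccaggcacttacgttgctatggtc
Fgf18: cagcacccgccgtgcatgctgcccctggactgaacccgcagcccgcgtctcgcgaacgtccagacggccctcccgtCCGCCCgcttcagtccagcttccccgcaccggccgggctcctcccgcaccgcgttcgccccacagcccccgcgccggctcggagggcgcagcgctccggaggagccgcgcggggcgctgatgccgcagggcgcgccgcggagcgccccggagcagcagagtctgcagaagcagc
Fgf7: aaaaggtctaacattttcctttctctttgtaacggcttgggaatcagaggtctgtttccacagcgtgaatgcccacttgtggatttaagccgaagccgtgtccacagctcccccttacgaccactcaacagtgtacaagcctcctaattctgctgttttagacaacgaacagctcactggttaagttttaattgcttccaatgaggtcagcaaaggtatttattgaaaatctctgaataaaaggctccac

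The Fgf2 promoter held a GC box (GGGCGG) overlapping an EGR-type site (GCGNGGGCG), the Fgf9 promoter a short cyclic AMP response motif (TGACGT), and the Fgf18 promoter a GC box read on the other strand. The Fgf7 promoter held none of the 6 motifs searched on both strands. Of 32851 annotated promoters of this length, 32.7% held the GC box, 4.70% the EGR-type site and 6.47% the TGACGT motif. The AP-1 site (TGANTCA, 6.75%), the ETS-type site (CCGGAAGT, 2.88%) and the TATA box (TATAAA, 12.4%) were in none of the 4. Their GC content was 62.4% for Fgf2, 77.2% for Fgf18, 44.8% for Fgf9 and 43.6% for Fgf7, against a median of 52.4%. These are matches of letters, not shown binding sites. Promoters were found for 9 of the 10 genes, and none for Fgfr1.

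In mesenchymal cells the genes that met the rule at 7 dpi were ligands, while at 21 dpi both ligands and receptor genes met it. Fgf2, Fgf9 and Fgf18 were lower at 7 dpi than in uninjured tendon in both sorts, Fgf7 was higher in the Gli1+ sort, and none of the 5 receptor genes met the rule at 7 dpi. In Gli1+ cells at 7 dpi, 1 of the 10 genes was higher and 3 were lower, where 13.5% and 21.5% of 18320 genes tested were higher and lower. In Gli1- cells at 7 dpi, 0 were higher and 3 lower, where 14.6% and 16.1% of 18389 genes were. At 21 dpi the Gli1+ counts were 0 higher and 3 lower (7.43% and 22.2% of 17840 genes), and the Gli1- counts were 2 higher (Fgfr3 and Fgfrl1) and 1 lower (13.1% and 17.1% of 17880 genes). With 10 genes these counts lie near the shares of all genes, so the results below are about single genes and not about the family. Both times were set against the same uninjured library of each sort.

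All 10 genes passed the minimum of 20 UMIs in each of these comparisons. The medians of their log2 ratios at 7 and 21 dpi were -0.50 and -0.26 in Gli1+ cells and -0.42 and -0.03 in Gli1- cells, against -0.20, -0.36, -0.09 and -0.13 over all genes tested. Scaling by trimmed means (TMM) in place of total UMIs added 0.30, 0.47, 0.11 and 0.19 to these 4 comparisons, and gave 19.2%, 15.3%, 16.4% and 16.2% of all genes higher and 15.5%, 13.2%, 14.1% and 13.8% lower. That shift left the direction of each difference that met the rule as it was, and values smaller than it are read here as having no direction. It ended calls in Gli1+ cells at 21 dpi, where Fgf2 (-0.81) and Fgf18 (-0.78) came short of 2-fold and Fgf7 (1.35), Fgfr3 (1.23) and Fgfrl1 (1.13) met the rule as higher.

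Counted over all cells of each library, immune and epidermal cells included, 1 gene was higher and 3 lower in Gli1+ 7 dpi over uninjured (14.2% and 27.4% of genes), 3 and 2 in Gli1+ 21 dpi (10.5% and 28.5%), 0 and 4 in Gli1- 7 dpi (12.5% and 21.2%) and 1 and 3 in Gli1- 21 dpi (11.6% and 18.7%). Within tendon stem cell-like cells, 0 genes were higher in any of the 4 comparisons (5.38%, 4.64%, 5.86% and 7.89% of genes), and 1, 3, 0 and 3 were lower (6.24%, 14.6%, 6.75% and 12%), in the same order. Of the 10 genes 8 had enough UMIs in the first of these, where the 7 dpi library held 51 such cells.

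**Figure D1:**
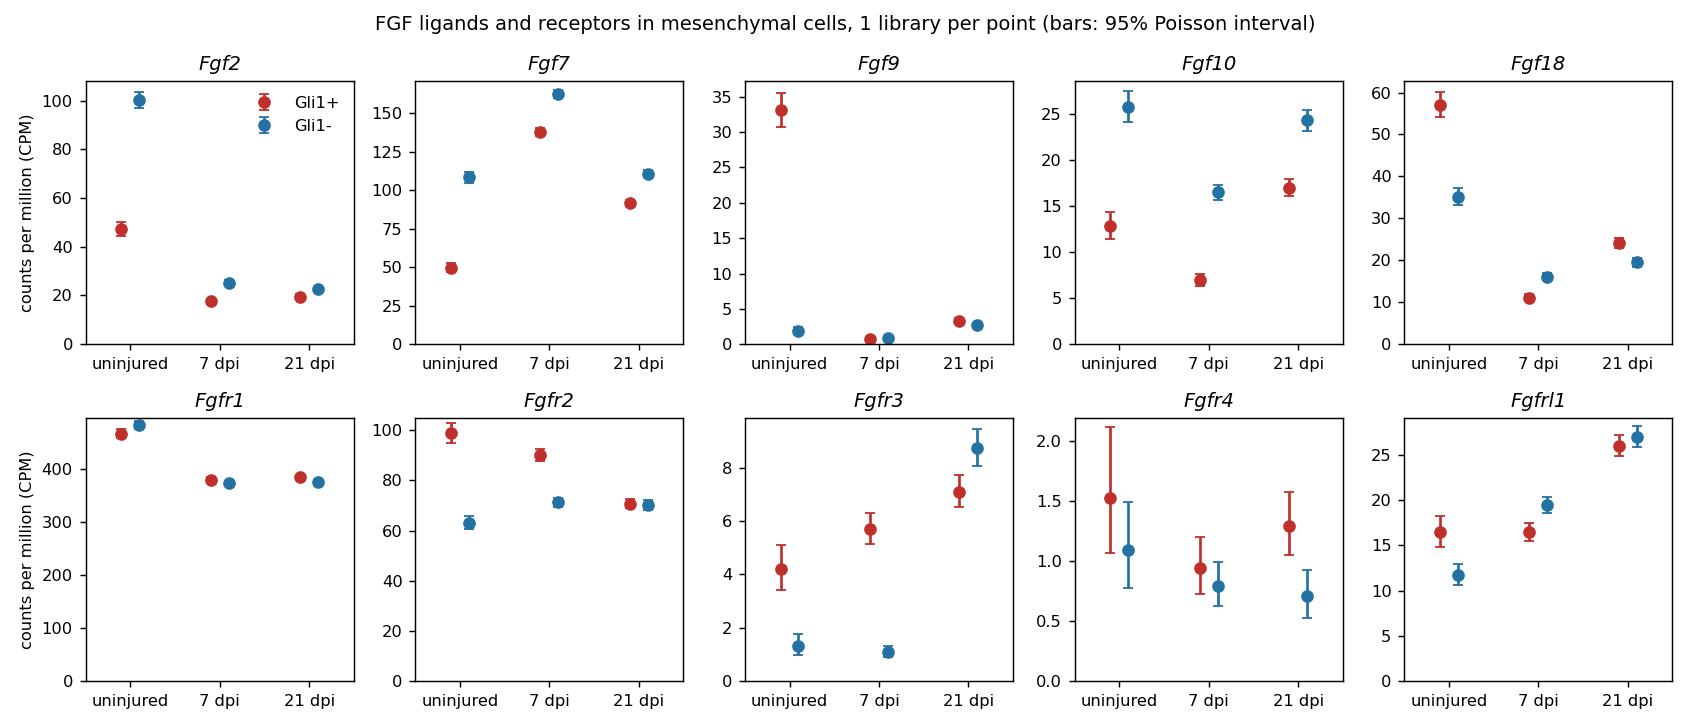
Level of each of the 10 genes in mesenchymal cells (CPM, y axis from 0, 1 scale per gene) against time (x axis: uninjured, 7 dpi, 21 dpi), with Gli1+ and Gli1- libraries in different colours. Each point is 1 library and each bar its 95% Poisson interval. Fgf9 stands at 33.1 CPM in the uninjured Gli1+ library and at or below 3.26 CPM in the other 5.

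**Figure D2:**
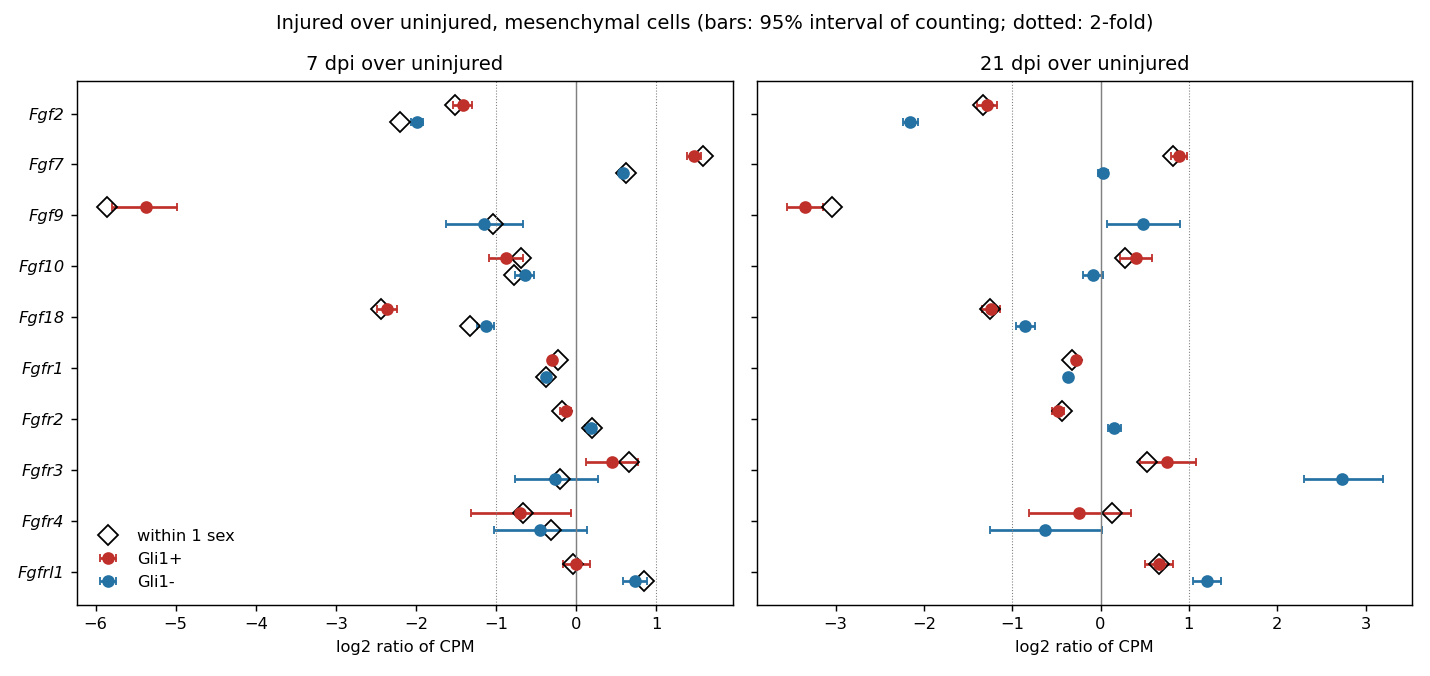
Log2 ratio of CPM (x axis) of 7 dpi and of 21 dpi over uninjured for each gene (y axis) in mesenchymal cells of both sorts. Bars are 95% binomial intervals of counting error and dotted lines mark 2-fold. Fgf9 in Gli1+ cells lies farthest to the left at both times (-5.38 and -3.34), and Fgfr3 in Gli1- cells at 21 dpi farthest to the right (2.73).

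Fgf2 was highest in the uninjured libraries and lower in all 4 injured ones. Its mesenchymal level was 47.3 CPM in uninjured Gli1+ cells, 17.7 at 7 dpi and 19.5 at 21 dpi. In Gli1- cells it was 100.3, 25.3 and 22.6 CPM. Every injured library was thus below both uninjured libraries. The log2 ratio was -1.42 [-1.54, -1.30] at 7 dpi and -1.28 [-1.39, -1.17] at 21 dpi in Gli1+ cells, and -1.99 [-2.06, -1.91] and -2.15 [-2.24, -2.07] in Gli1- cells. Male cells alone gave Fgf2 ratios of -1.51 (Gli1+) and -2.20 (Gli1-) at 7 dpi, and female cells alone gave -1.33 in Gli1+ cells at 21 dpi.

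The mix of clusters differed between libraries, and its part in the Fgf2 difference was not tested. Cells of clusters named from the tendon stem cell markers (Tppp3, Ly6a, Pi16, Dpp4, Cd34, Pdgfra) are called tendon stem cell-like here. They comprised the clusters led by Inmt and by Sema3e, in which 4 and 5 of the markers were raised over other cells. The Sema3e-led cluster was 618 of these cells beside 808 Inmt-led ones in uninjured Gli1+ tendon and 1252 beside 406 at 21 dpi, and 118 beside 5369 and then 1022 beside 1026 in Gli1-. They held Fgf2 at 62.4, 46.6 and 29.1 CPM (Gli1+) and 104, 63.9 and 37.2 CPM (Gli1-). Within them the log2 ratio met the rule at 21 dpi (-1.10 in Gli1+, -1.48 in Gli1-) and not at 7 dpi (-0.42, from 51 cells at 7 dpi, and -0.70). By cluster, Fgf2 in uninjured and 21 dpi tendon was 59.6 and 35.8 CPM (Gli1+) and 103 and 45.4 CPM (Gli1-) in Inmt-led cells, and 64.9 and 27.9 CPM (Gli1+) and 123 and 33.3 CPM (Gli1-) in Sema3e-led cells. The Inmt-led cluster alone went from 91.9% of Gli1- mesenchymal cells in uninjured tendon to 23.3% at 7 dpi, and several clusters that were rare before injury held less Fgf2. The Gzme-led cluster had 21.9 CPM (Gli1-) and the Klk1-led cluster 20.8 CPM (Gli1+) at 7 dpi, and the cluster led by the cell cycle genes Hmmr, Birc5 and Plk1 had 7.16 to 7.88 CPM at 7 dpi. Chondrocyte-like cells, also rare before injury, held 46.6 CPM (Gli1+) and 44.3 CPM (Gli1-) of Fgf2 at 21 dpi, beside the 29.1 and 37.2 CPM of tendon stem cell-like cells. Outside the mesenchyme, Schwann-like cells held 36.2 to 42.3 CPM of Fgf2 in the Gli1- libraries, and basal epidermal-like cells of the Gli1+ sort went from 18.0 CPM to 4.10 and 4.34 CPM. Nudt6, on the opposite strand, shares 640 exon bases with Fgf2 and had 3479 UMIs against 12161 for Fgf2 over all libraries.

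Fgf18, a ligand known for its role in cartilage and bone growth, was lower at 7 dpi in both sorts and part of the way back at 21 dpi in Gli1+ cells. It stood at 57.1, 11.1 and 24.1 CPM (Gli1+) and 35.1, 16.0 and 19.5 CPM (Gli1-). The 2 uninjured libraries were again above all 4 injured ones. The log2 ratios at 7 dpi were -2.36 [-2.49, -2.23] and -1.13 [-1.24, -1.02]. At 21 dpi they were -1.25 [-1.35, -1.14] in Gli1+ cells and -0.85 [-0.96, -0.74], short of 2-fold, in Gli1- cells. Male cells alone gave -2.44 and -1.33 at 7 dpi, and female cells alone -1.25 for Fgf18 in Gli1+ cells at 21 dpi.

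Within tendon stem cell-like cells, however, Fgf18 was not lower at 7 dpi. There it was 59.6, 66.0 and 21.6 CPM (Gli1+) (17 UMIs at 7 dpi) and 35.6, 48.2 and 21.9 CPM (Gli1-), so that the log2 ratio at 7 dpi was 0.15 [-0.64, 0.83] and 0.44 [0.29, 0.58]. Tenocyte-like cells (Scx, Tnmd, Fmod, Mkx, Thbs4, Kera, Comp) held Fgf18 at 73.3, 25.3 and 34.8 CPM (Gli1+) and 36.2, 10.4 and 28.3 CPM (Gli1-). The mix of tenocyte-like clusters differed between these libraries. Most were Col22a1-led in uninjured tendon (689 cells in Gli1+, 203 in Gli1-), Vat1l-led in the Gli1+ 7 dpi library (644) and Wfdc1-led at 21 dpi (4253 and 3698). The Gli1- 7 dpi library held 229 Col22a1-led and 209 Wfdc1-led cells. Within the Col22a1-led cluster Fgf18 also differed, from 9.44 to 66.8 CPM over the 5 libraries with at least 50 of its cells. The Wfdc1-led cluster, which held 52.9% (Gli1+) and 49.1% (Gli1-) of mesenchymal cells at 21 dpi, had 34.3 and 28.3 CPM of Fgf18 there. Of other clusters that were rare in uninjured tendon, the Klk1-led one had 13 CPM, the Gzme-led one 13.3 CPM (Gli1-, 7 dpi), the cycling one 2.93 and 3.24 CPM at 7 dpi, and the cluster led by Saa3, Grem1 and Mmp13 3.65 and 3.75 CPM at 21 dpi. Chondrocyte-like and bone-like cells held at most 2.22 CPM of Fgf18 at 21 dpi, the time at which 50 or more of each were found in a library.

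Fgf7, a stromal ligand for the epithelial form of Fgfr2, was the one ligand of the 5 that met the rule in mesenchymal cells as higher than in uninjured tendon. Its mesenchymal level was 49.7 CPM in uninjured Gli1+ cells, 138 at 7 dpi and 91.7 at 21 dpi. In Gli1- cells it was 108, 162 and 111 CPM. The Gli1+ uninjured library was the low one, and the remaining 5 overlapped in range between sorts. The log2 ratio was 1.47 [1.38, 1.56] at 7 dpi and 0.88 [0.79, 0.97] at 21 dpi in Gli1+ cells, and 0.58 [0.53, 0.63] and 0.03 [-0.02, 0.09] in Gli1- cells. With male cells alone the 7 dpi ratios of Fgf7 were 1.58 and 0.62.

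The higher Fgf7 level of 7 dpi was not found within tendon stem cell-like cells. These held 72.8, 50.4 and 49.8 CPM (Gli1+) and 112, 105 and 53.2 CPM (Gli1-). In them the Gli1- log2 ratio at 21 dpi met the rule as lower (-1.08). The part of the cluster mix in the mesenchymal difference was not tested. At 7 dpi the Klk1-led cluster had 153 CPM (Gli1+), the Gzme-led cluster 274 CPM (Gli1+) and 177 CPM (Gli1-), and the cycling cluster 119 and 159 CPM. The Klk1-led cluster came to 99.4% from the Gli1+ 7 dpi library and the Gzme-led one to 92.0% from the Gli1- 7 dpi library. Both had Gzme, Gzmd, H19, Pgr and Gm32014 among their 10 leading genes, and the Klk1-led one also Krt2. Whether they are a single cell state divided by library was not tested. In the Gli1- 7 dpi library the Gzme-led and cycling clusters gave 77.7% and 12% of the mesenchymal Fgf7 UMIs. In the Gli1+ 7 dpi library the Klk1-led and cycling clusters gave 69.7% and 23.5%. At 21 dpi the Saa3-led cluster had 255 and 277 CPM of Fgf7 and gave 47.2% and 49.8% of the mesenchymal UMIs from 9.71% and 11.1% of the cells. Tenocyte-like cells had 8.65, 17.1 and 60.2 CPM (Gli1+) and 15.3, 83.2 and 76.9 CPM (Gli1-). Mural-like cells, the pericytes and smooth muscle of vessels, were low in Fgf7 but higher after injury in both sorts (8.32, 33.6 and 32.5 CPM (Gli1+), 9.07, 25.7 and 34.3 CPM in Gli1-), with log2 ratios of 2.01 [0.88, 3.28] and 1.97 [1.01, 3.12] for Gli1+ and 1.5 [0.88, 2.15] and 1.92 [1.39, 2.5] for Gli1- cells. The mix of mural-like clusters differed between these libraries. The Myh11-led cluster was 63 of 137 and 269 of 908 mural-like cells in uninjured tendon (Gli1+ and Gli1-) and 581 of 605 and 997 of 1095 at 21 dpi. Within it Fgf7 was 16.7, 32.9 and 33.2 CPM (Gli1+) and 16.4, 24.1 and 34.7 CPM (Gli1-), against 4.70 and 3.14 CPM in the other two mural-like clusters of uninjured Gli1- tendon. The 9 mesenchymal markers, none at 0, summed to 696, 5750 and 4964 CPM (Gli1+) and 1427, 10191 and 8198 CPM (Gli1-) over all cells outside the mesenchyme, and the part of mesenchymal RNA in mural-like Fgf7 was not tested.

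**Figure D3:**
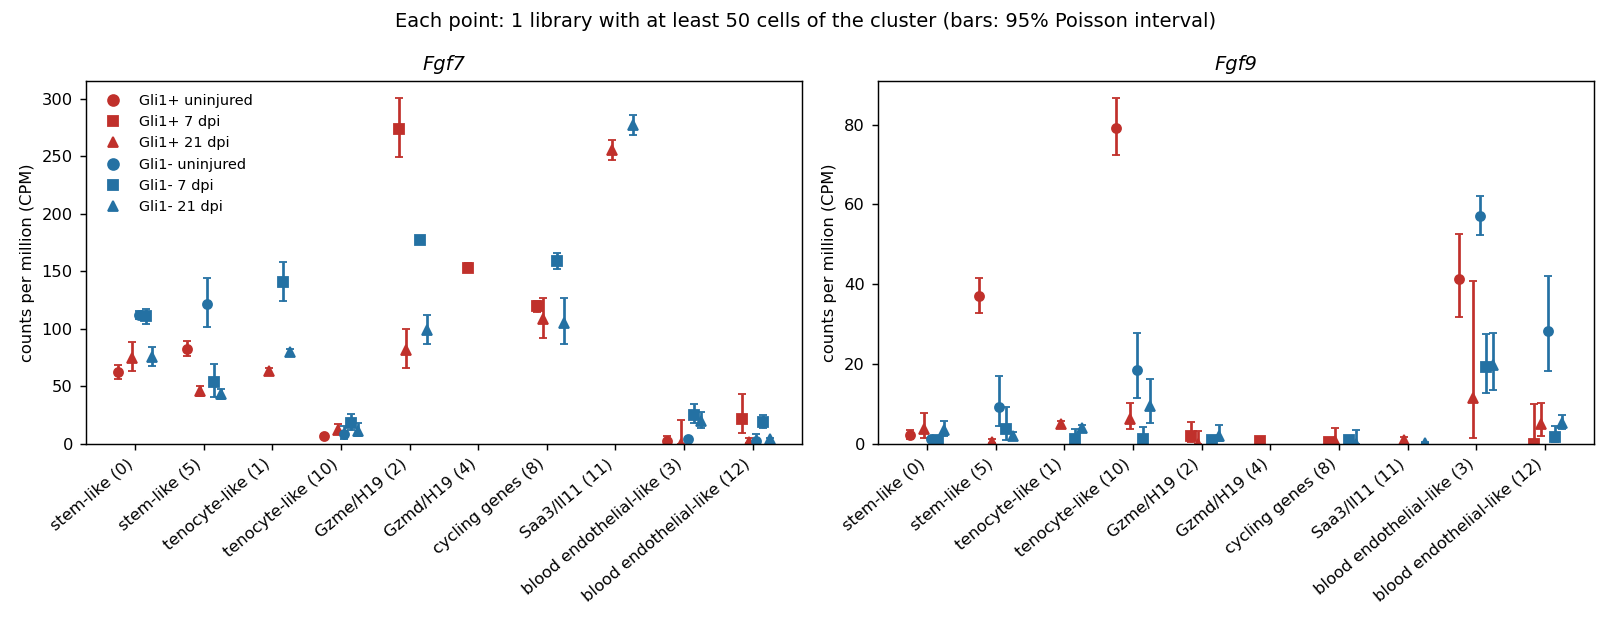
Levels of ligands (CPM, y axis from 0) in single clusters (x axis), 1 point per library with at least 50 cells of the cluster. Colour marks the sort and shape the time, and bars are 95% Poisson intervals. Fgf7 is highest in the Saa3-led cluster at 21 dpi (255 and 277 CPM) and in the Gzme-led cluster at 7 dpi, and Fgf9 in the Col22a1-led cluster of the Gli1+ uninjured library.

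Fgf9 was the gene with the widest difference among the 10, and it was carried by the Gli1+ uninjured library. Mesenchymal cells there held 33.1 CPM (779 UMIs), against 0.796 CPM at 7 dpi and 3.26 CPM at 21 dpi in Gli1+ cells. Gli1- cells held 1.90, 0.857 and 2.65 CPM. The log2 ratio over uninjured was -5.38 [-5.80, -4.98] at 7 dpi and -3.34 [-3.55, -3.14] at 21 dpi in Gli1+ cells, and -1.15 [-1.63, -0.66] and 0.48 [0.07, 0.90] in Gli1- cells, the last being -0.0081 where no cells were filtered. Male cells alone gave -5.86 and -1.04 for Fgf9 at 7 dpi, and female cells alone -3.04 in Gli1+ cells at 21 dpi.

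Within the Gli1+ uninjured library Fgf9 was held by the tenocyte-like cluster led by Col22a1, Ptx4 and Chad (79.2 CPM, 485 UMIs in 689 cells) and by the stem cell-like cluster led by Sema3e, Myoc and Prg4 (36.9 CPM, 276 UMIs). The Inmt-led cluster of the same library had 2.07 CPM, myeloid-like cells 8.13 CPM and T cell-like cells 1.47 CPM. Where the same clusters occurred in other libraries they held less Fgf9. The Col22a1-led cluster had 18.4 CPM (22 UMIs) in the Gli1- uninjured library, 1.18 CPM (2 UMIs) in the Gli1- 7 dpi library, and 6.26 CPM (Gli1+) and 9.50 CPM (Gli1-) at 21 dpi. Its log2 ratio was -3.66 [-4.48, -2.95] for Gli1+ 21 dpi over uninjured, -3.96 [-7.09, -1.94] for Gli1- 7 dpi over uninjured and 2.11 [1.5, 2.8] for Gli1+ over Gli1- in uninjured tendon. The Sema3e-led cluster went from 36.9 CPM of Fgf9 to 0.452 CPM (5 UMIs) in Gli1+ cells at 21 dpi. With each cell thinned to 2000 UMIs, 10.1% of the Col22a1-led cells of the Gli1+ uninjured library had an Fgf9 UMI (20.9% unthinned), against 3.28% in the Gli1- uninjured library and 0.706% in the Gli1+ 21 dpi library.

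Blood endothelial-like cells (Cdh5, Pecam1, Kdr, Emcn, Vwf, Egfl7, Cldn5) were the other holders of Fgf9, and here too the level was lower after injury. It was 54.6, 8.66 and 7.79 CPM (Gli1-), with log2 ratios of -2.66 [-3.21, -2.15] and -2.81 [-3.18, -2.46]. In the Gli1+ sort it was 37.8 CPM (66 UMIs), then 0 UMIs in 142 cells at 7 dpi, where 3 counts would be 5.14 CPM, and 5.57 CPM at 21 dpi. Within the Gpihbp1-led endothelial cluster, which gave most of these cells in uninjured tendon, Fgf9 was 57.0, 19.1 and 19.7 CPM (Gli1-). The Selp-led endothelial cluster had 28.3, 1.75 and 5.24 CPM of Fgf9 and grew from 108 to 835 cells between Gli1- uninjured and 21 dpi. Endothelial-like cells gave 82.0% of the Fgf9 UMIs of the Gli1- uninjured library, whereas mesenchymal cells gave 83.9% of those of the Gli1+ uninjured library. The 7 endothelial markers summed to 32.9, 16.8 and 11.6 CPM inside Gli1+ mesenchymal cells and to 128, 52.2 and 49.5 CPM inside Gli1- ones, with no marker at 0. The part of endothelial RNA in mesenchymal Fgf9 was not tested. Mural-like cells of the Gli1- sort had 14.0, 1.30 and 0.656 CPM of Fgf9, but the mix of their clusters changed as given above. In the Casq2-led cluster Fgf9 was 35.5 CPM in uninjured tendon (34 UMIs) and 11.4 CPM at 7 dpi (3 UMIs), and in the Myh11-led cluster it was at most 1.43 CPM in each Gli1- library.

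Fgf10, a stromal ligand required for limb and lung outgrowth, did not meet the rule in mesenchymal cells in any comparison with uninjured tendon. It was 12.9, 6.98 and 17 CPM (Gli1+) and 25.8, 16.5 and 24.3 CPM (Gli1-), lowest at 7 dpi in both sorts. The log2 ratios at 7 dpi were -0.88 [-1.09, -0.67] and -0.65 [-0.76, -0.53]. Under other scaling, filters and cell sets the Fgf10 ratio ran from -2.14 to 0.18 for Gli1+ at 7 dpi and from -1.21 to 0.10 for Gli1- at 21 dpi. Over all cells of the Gli1+ libraries, immune cells included, Fgf10 met the rule as higher at 21 dpi (13.8 CPM against 4.88 CPM in uninjured tendon). Between 97.7% and 99.4% of each library's Fgf10 UMIs came from mesenchymal cells. The highest level was in a small unnamed mesenchymal cluster led by Gpc5, Coch and Slc26a7 (328 cells), with 97.5 CPM (Gli1+, 7 dpi), 57.4 CPM (Gli1+, 21 dpi) and 112 CPM (Gli1-, 21 dpi). The Col22a1-led tenocyte-like cluster held at most 3.54 CPM of Fgf10, while the Wfdc1-led one, the main tenocyte-like cluster at 21 dpi, held 21.3 and 32.4 CPM. Gm16263, an antisense gene, shares 123 exon bases with Fgf10.

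**Figure D4:**
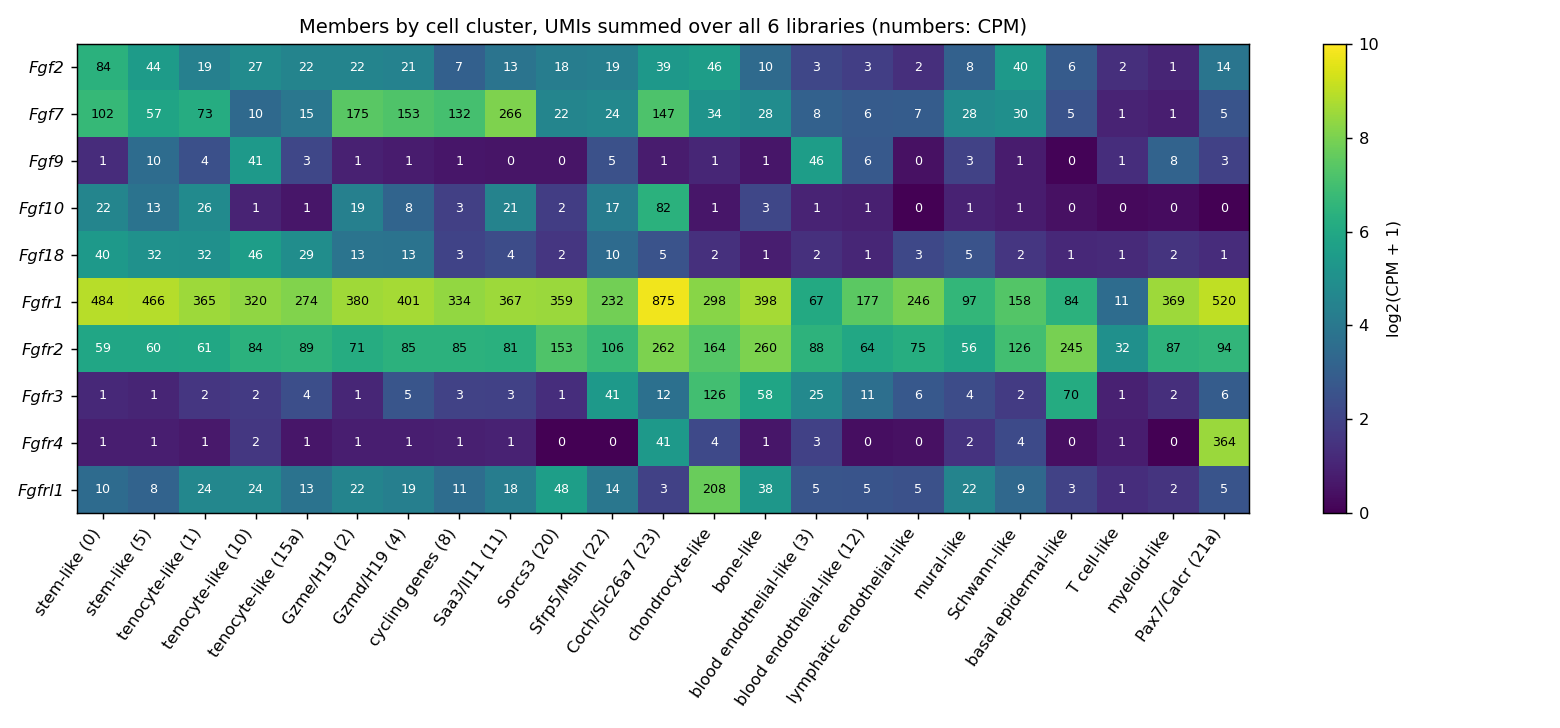
Level of each of the 10 genes (rows) in each cluster or named type (columns), with UMIs summed over all 6 libraries. Colour is log2(CPM + 1) and the printed numbers are CPM, so that colours compare cell types within a gene and not genes with each other, since transcripts differ in length and 3' capture. Fgfr4 is highest in the Pax7/Calcr column and Fgfr1 is spread over all mesenchymal ones.

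Fgfr1 was present in every mesenchymal cluster and differed little with injury. It was 468, 380 and 386 CPM (Gli1+) and 484, 373 and 375 CPM (Gli1-), all 4 injured libraries lying below both uninjured ones. The log2 ratios were -0.30 and -0.28 in Gli1+ cells, which became 0.00 and 0.19 under TMM scaling, and -0.37 and -0.37 in Gli1- cells (-0.26 and -0.18 under TMM). Thinned to 2000 UMIs, 49.5% to 58.9% of mesenchymal cells had an Fgfr1 UMI in each library. The Gpc5-led cluster was highest with 908, 855 and 628 CPM, and myeloid-like cells of the Gli1+ uninjured library had 369 CPM against 10.7 CPM in T cell-like cells of the same library.

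Endothelial Fgfr1 was higher in the injured libraries. Blood endothelial-like cells had 40.1, 135 and 132 CPM (Gli1+) and 65.3, 129 and 184 CPM (Gli1-), both uninjured libraries being below all 4 injured ones. The log2 ratios were 1.76 [1.27, 2.24] and 1.72 [1.32, 2.13] in Gli1+ cells, and 0.98 [0.81, 1.15] and 1.5 [1.37, 1.63] in Gli1- cells. The 2 main endothelial clusters differed in this. In the Selp-led cluster of the Gli1- sort Fgfr1 was 45.9, 159 and 208 CPM (log2 ratios 1.79 [1.31, 2.31] and 2.18 [1.72, 2.68]), while in the Gpihbp1-led cluster it was 67.1, 83.0 and 72.7 CPM (0.31 [0.02, 0.58] and 0.12 [-0.18, 0.40]). Gli1+ endothelial-like cells were mostly of different clusters at each time, with 326 Gpihbp1-led and 19 Selp-led cells in uninjured tendon, 10 and 55 of these beside 77 Gbp4-led cells at 7 dpi, and 68 Gpihbp1-led and 168 Selp-led cells at 21 dpi. There Fgfr1 was 43.1 CPM in uninjured and 90.4 CPM (16 UMIs) in 21 dpi Gpihbp1-led cells, 179 and 137 CPM in Selp-led cells at 7 and 21 dpi, and 61.0 CPM in Gbp4-led cells. Lymphatic endothelial-like cells had 123 CPM in uninjured and 321 CPM at 21 dpi Gli1- tendon (1.38 [1.04, 1.74]). Fgf7, of which mesenchymal cells gave at least 95.1% of the UMIs in every library, was 3.60, 21 and 6.42 CPM in these Gli1- endothelial cells, and the part of mesenchymal RNA in their Fgfr1 was not tested.

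Fgfr2, whose epithelial form answers to Fgf7 and Fgf10, was high in basal epidermal-like cells and in a few small mesenchymal clusters. Basal epidermal-like cells (Krt5, Krt14, Krt15, Trp63, Col17a1, Itgb4) had 354, 257 and 187 CPM (Gli1+) and 300 CPM (Gli1-, 21 dpi). The log2 ratios over uninjured in Gli1+ basal epidermal-like cells were -0.46 and -0.92, short of 2-fold. In mesenchymal cells Fgfr2 was 98.8, 90.2 and 70.7 CPM (Gli1+) and 63.0, 71.2 and 70.2 CPM (Gli1-), a range in which the injured libraries of both sorts overlapped. The basal epidermal markers inside Gli1+ mesenchymal cells, given with Fgfr3 below, differed between these libraries, and the part of epidermal RNA in Fgfr2 was not tested. Chondrocyte-like cells had 137 and 170 CPM and bone-like cells 206 and 263 CPM at 21 dpi in Gli1+ and Gli1-, and the Gpc5-led cluster 221 to 327 CPM. T cell-like cells, which are not known to use Fgfr2, had 31.8 CPM and an Fgfr2 UMI in 6.35% of thinned cells, beside which the lowest mesenchymal value was 63.0 CPM. The Fgfr2 gene model of the annotation used here spans 2960900 bases and shares 314 exon bases with Ctbp2 on the same strand.

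Fgfr3 was the receptor with the largest difference after injury in mesenchymal cells, where it was highest in cells that were chondrocyte-like (Col2a1, Acan, Sox9, Col9a1, Col9a2, Col11a1, Cnmd) and bone-like (Bglap, Ibsp, Sp7, Alpl, Runx2, Dmp1, Phex). In mesenchymal cells it was 4.20, 5.70 and 7.11 CPM (Gli1+) and 1.32, 1.10 and 8.75 CPM (Gli1-). Only the Gli1- 21 dpi library met the rule, with a log2 ratio of 2.73 [2.31, 3.19], a comparison in which sex and time cannot be told apart. The 10 leading genes of the bone-like cluster included Car3, Cfd and Adipoq beside Bglap and Ibsp. Chondrocyte markers were also raised in it. Its levels here and for Fgfr2 and Fgfrl1 may therefore not be those of bone cells alone. At 21 dpi Fgfr3 was 109 and 134 CPM in chondrocyte-like cells and 75.9 and 50.2 CPM in bone-like cells. These cells gave 44.7% and 21.8% of the mesenchymal Fgfr3 UMIs of the Gli1+ library and 62.5% and 10.7% of those of the Gli1- library. Chondrocyte-like cells were 2.01% and 2.84% of mesenchymal cells at 21 dpi, and fewer than 50 were found in any earlier library. Bone-like cells were 29 in uninjured Gli1+ tendon, where they gave 25 of 99 mesenchymal Fgfr3 UMIs, and 118 (Gli1+) and 126 (Gli1-) at 21 dpi. Between uninjured and 21 dpi mesenchymal cells, the sum of the 7 bone markers went from 1379 to 1119 CPM (Gli1+) and from 107 to 667 CPM (Gli1-), and that of the 7 chondrocyte markers from 402 to 1973 CPM (Gli1+) and from 93.5 to 2725 CPM (Gli1-). Tendon stem cell-like cells had 1.19 and 1.14 CPM of Fgfr3 in Gli1- uninjured and 21 dpi tendon, with a log2 ratio of -0.057.

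Epidermal cells were the main holders of Fgfr3 in the Gli1+ sort, with 63.2%, 70.9% and 57.4% of its UMIs in the 3 libraries, and basal epidermal-like cells had 87.0, 63.6 and 73.3 CPM. The 6 basal epidermal markers summed to 26.7, 903 and 119 CPM inside Gli1+ mesenchymal cells and to 10.2, 19.2 and 17.6 CPM inside Gli1- ones, with no marker at 0 except 3 in the Gli1- uninjured library. At 7 dpi, where these markers were highest in Gli1+ mesenchymal cells, Fgfr3 was 5.70 CPM there, with a log2 ratio of 2.38 [2.06, 2.70] over Gli1-. At 21 dpi the markers were lower than at 7 dpi in Gli1+ cells, and Fgfr3 was 7.11 CPM. The part of epidermal RNA in these Fgfr3 values was not tested. Blood endothelial-like cells also held Fgfr3, at 25.8, 17.1 and 17.3 CPM (Gli1+) and 25.3, 7.61 and 14.8 CPM (Gli1-), with a log2 ratio of -1.73 [-2.34, -1.17] for Gli1- 7 dpi over uninjured. By cluster, Fgfr3 in Gli1- cells was 23.9, 15.1 and 37.6 CPM in the Gpihbp1-led and 40.03, 2.62 and 9.97 CPM in the Selp-led one.

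Fgfr4 was highest in 1 small cluster that expressed Pax7, Calcr and Myf5, genes known from muscle stem cells. No marker list for muscle stem cells was used, and the cluster of 344 cells was left unnamed. It had 379 and 392 CPM of Fgfr4 in the Gli1+ uninjured and 21 dpi libraries and 337 and 406 CPM in those of the Gli1- sort, and fewer than 50 cells at 7 dpi. The 4 intervals overlapped, running from 286 to 523 CPM. After thinning, 52.1% and 47.3% of its uninjured cells had an Fgfr4 UMI, in Gli1+ and Gli1-. The cluster gave 73.3% and 66.8% of the Fgfr4 UMIs of the uninjured libraries from 1.03% and 1.16% of their cells. Its share was smaller after injury, with 0% and 29.4% of the Fgfr4 UMIs at 7 dpi (from 1 and 38 cells) and 34.3% and 47.6% at 21 dpi, where mesenchymal cells gave 64.4% and 55.9%, then 59.2% and 41.3%. Mesenchymal cells as a whole held 0.708 to 1.53 CPM of Fgfr4, with the Gpc5-led cluster at 32.2 to 48.8 CPM.

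Fgfrl1, the receptor without a kinase domain, was also highest in chondrocyte-like cells. These had 216 CPM (Gli1+) and 208 CPM (Gli1-) at 21 dpi, against 53.1 and 43.6 CPM in bone-like cells. In the Gli1+ library the log2 ratio of chondrocyte-like over bone-like cells was 2.02 [1.68, 2.37]. In mesenchymal cells Fgfrl1 was 16.5, 16.4 and 26.0 CPM (Gli1+) and 11.7, 19.5 and 27.0 CPM (Gli1-), with the 21 dpi level the highest in both sorts. The log2 ratios at 21 dpi were 0.66 [0.50, 0.82] and 1.21 [1.05, 1.36], and the chondrocyte-like cells gave 24.2% and 31.5% of the mesenchymal UMIs at that time. Tendon stem cell-like cells held 8.01 and 8.18 CPM (Gli1+) and 11.5 and 8.44 CPM (Gli1-) in uninjured and 21 dpi tendon. A small mesenchymal cluster led by Sorcs3 and Unc13c had 54.2 CPM of Fgfrl1 in the Gli1+ uninjured library, and mural-like cells of the Gli1+ sort went from 11.1 to 31.7 CPM between uninjured and 21 dpi (1.51 [0.67, 2.5]). In the Myh11-led mural-like cluster alone, whose share differed between these libraries, Fgfrl1 was 18.6, 7.48 and 31.8 CPM (Gli1+).

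**Figure D5:**
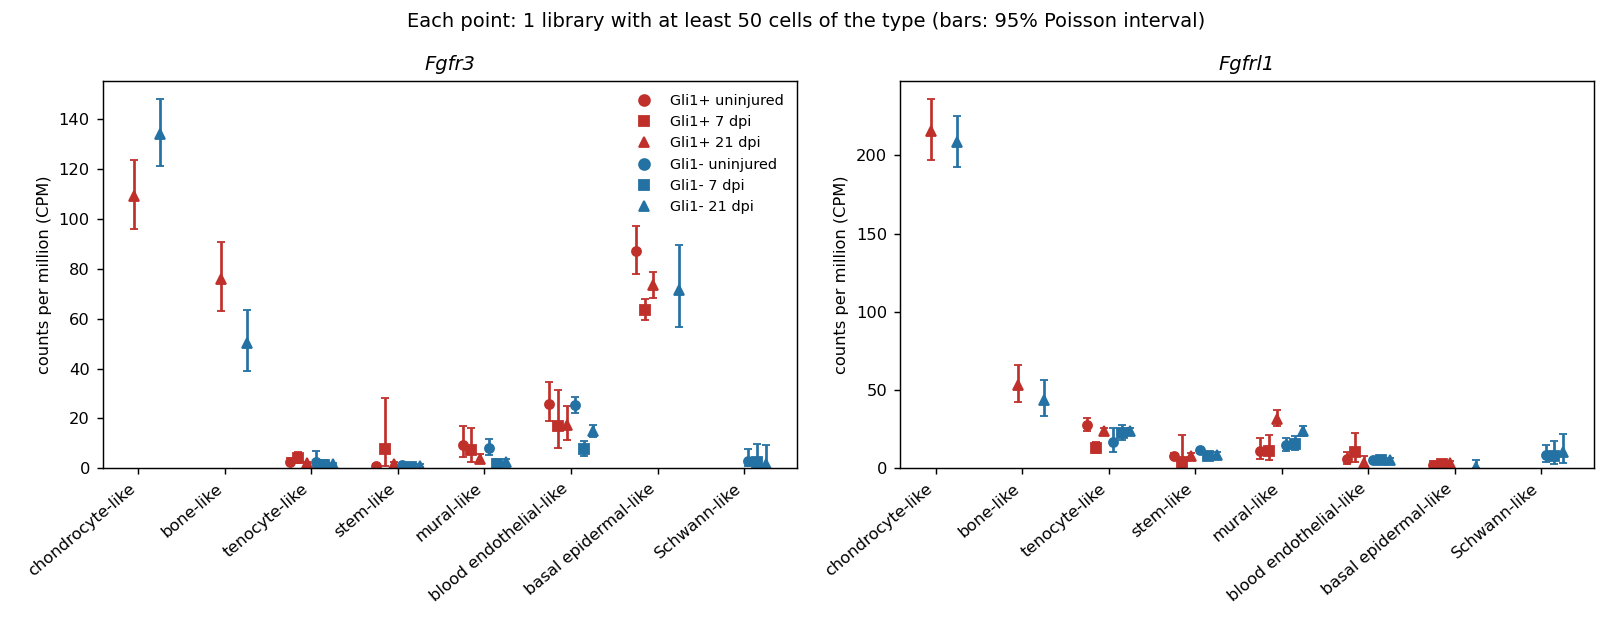
Levels of Fgfr3 and Fgfrl1 (CPM, y axis from 0) in cell types (x axis), 1 point per library with at least 50 cells. Colour marks the sort, shape the time, and bars are 95% Poisson intervals. Chondrocyte-like cells stand above bone-like cells for Fgfrl1 (216 and 208 CPM against 53.1 and 43.6) and are highest for Fgfr3 (109 and 134 CPM).

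More of the 10 genes met the rule between sorts in uninjured tendon than at 7 or 21 dpi, but the uninjured pair set a library of both sexes against a male one, whereas the later pairs matched in sex. In uninjured mesenchymal cells Fgf9 and Fgfr3 were higher and Fgf2, Fgf7 and Fgf10 lower in Gli1+ than in Gli1-, that is 2 higher and 3 lower where 14.2% and 5.28% of 16917 genes were. The log2 ratios were 4.12 [3.76, 4.50] for Fgf9, 1.68 [1.16, 2.21] for Fgfr3, -1.08 [-1.18, -0.99] for Fgf2, -1.12 [-1.22, -1.03] for Fgf7 and -1.0 [-1.20, -0.82] for Fgf10. With male cells alone they were 4.54, 1.45 [0.60, 2.27], -1.16, -1.16 and -1.26 in the same order. At 7 dpi 1 gene was higher (Fgfr3, above) and 1 lower (Fgf10, -1.24 [-1.39, -1.09]), where 4.76% and 1.85% of 19080 genes were. At 21 dpi 0 were higher and 0 lower, where 1.45% and 2.25% of 18231 genes were, and the widest was Fgfr4 at 0.87 [0.37, 1.38] with 152 UMIs in all. The mix of clusters differed between the uninjured sorts, since the Inmt-led cluster was 32.8% of Gli1+ and 91.9% of Gli1- mesenchymal cells, and the Col22a1-led cluster 28.0% and 3.47%. In that Inmt-led cluster of uninjured tendon the log2 ratio was -0.79 [-0.94, -0.64] for Fgf2, and within all tendon stem cell-like cells it was -0.62 [-0.72, -0.52] for Fgf7, in the same direction and short of 2-fold, while that of Fgfr3 was -0.38. None of Fgf2, Fgf7 and Fgf10 met the rule as lower within all tendon stem cell-like cells.

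Between 7 and 21 dpi, Fgf9, Fgf10 and Fgf18 were higher at 21 dpi in Gli1+ mesenchymal cells (3 higher and 0 lower, where 4.87% and 12.8% of 18670 genes were), and Fgf9 and Fgfr3 were higher in Gli1- cells (2 higher and 0 lower, where 6% and 7.84% of 18785 genes were). The log2 ratios were 2.03 [1.61, 2.48], 1.28 [1.13, 1.44] and 1.12 [1.0, 1.24] for Fgf9, Fgf10 and Fgf18 in Gli1+ cells, and 1.63 [1.25, 2.02] and 2.99 [2.70, 3.31] for Fgf9 and Fgfr3 in Gli1- cells. Nearly all scored cells were male at 7 dpi and female at 21 dpi.

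Other genes of the pathway were described from 6 lists, of which the feedback inhibitors and the transcriptional targets of FGF signalling had medians below those of all genes in each injury comparison. Of 10 feedback inhibitors tested, 0 were higher and 5 lower at 7 dpi in either sort, and 0 were higher and 5 (Gli1+) or 4 (Gli1-) lower at 21 dpi. Over all genes tested the lower shares were 21.5% (Gli1+) and 16.1% (Gli1-) at 7 dpi and 22.2% and 17.1% at 21 dpi, and the higher shares 13.5%, 14.6%, 7.43% and 13.1%. Their median log2 ratios were -0.89, -0.88, -0.90 and -0.89 for Gli1+ 7 and 21 dpi and Gli1- 7 and 21 dpi, beside the medians of all genes given above. Spry1, a Sprouty inhibitor of receptor tyrosine kinase signalling, was 77.4, 18.1 and 28.2 CPM (Gli1+) and 124, 19.9 and 27.0 CPM (Gli1-). Spry4, of the same family, was 21.4, 4.15 and 3.77 CPM (Gli1+) and 27.7, 6.10 and 5.38 CPM (Gli1-). Il17rd, a membrane inhibitor of FGF signalling, was 55.4, 14.3 and 24.0 CPM (Gli1+) and 34.8, 11.8 and 19.9 CPM (Gli1-). For these 3 genes both uninjured libraries were above all 4 injured ones. Like the genes named from the other lists, they were picked for a wide mean difference at 7 dpi, so that difference is no separate result. The levels are over all mesenchymal cells, and the part of the cluster mix in them was not tested.

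Of 11 transcriptional targets, 0 were higher and 4 lower in Gli1+ and 0 higher and 6 lower in Gli1- cells at 7 dpi, and 0 and 6 (Gli1+) or 1 and 3 (Gli1-) at 21 dpi, beside the same shares of all genes, with medians of -0.38, -1.06, -1.19 and -0.64 in that order. Etv1, an ETS factor induced by FGF signals, was 49.3, 7.58 and 11.5 CPM (Gli1+) and 27.5, 7.93 and 14.8 CPM (Gli1-). Etv4 was 14.4, 3.0 and 2.51 CPM (Gli1+) and 5.23, 2.0 and 3.09 CPM (Gli1-), and the immediate early factor Egr1 was 3567, 1259 and 1488 CPM (Gli1+) and 4371, 1417 and 1480 CPM (Gli1-). Other signals also regulate these genes.

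The lists on the supply side were mixed, and their counts are read beside the same shares of all genes, 13.5%, 14.6%, 7.43% and 13.1% higher and 21.5%, 16.1%, 22.2% and 17.1% lower (Gli1+ and Gli1- at 7 dpi, then at 21 dpi), several being near them. Of the heparan sulfate enzymes (11 tested), 4 were higher and 0 lower in Gli1+ and 5 higher and 1 lower in Gli1- cells at 7 dpi, and 1 and 1 or 2 and 1 at 21 dpi, with medians of 0.27, 0.51, 0.24 and 0.32. Ext1, which polymerises the chains, was 394, 1194 and 618 CPM (Gli1+) and 525, 1238 and 737 CPM (Gli1-), and Sulf2, which removes sulfate from them, 82.1, 198 and 165 CPM (Gli1+) and 54.5, 216 and 151 CPM (Gli1-). Of 13 co-receptors and carriers, 12 and 10 were tested at 7 dpi and 11 and 11 at 21 dpi (Gli1+ and Gli1-). Of these 2 were higher and 2 lower in each sort at 7 dpi, and 3 higher and 1 lower (Gli1+) or 4 and 1 (Gli1-) at 21 dpi, with medians of -0.39, -0.04, -0.09 and 0.38. The cell-surface proteoglycan Sdc1 was 20.1, 62.1 and 91.3 CPM (Gli1+) and 8.76, 47.7 and 94.7 CPM (Gli1-), whereas Gpc3 was 185, 52.5 and 45.5 CPM (Gli1+) and 137, 49.4 and 39.4 CPM (Gli1-). Of 12 receptor-proximal signal proteins 0 were higher and 2 lower in Gli1+ and 1 and 1 in Gli1- cells at 7 dpi, and 0 and 1 or 0 and 2 at 21 dpi, with medians of -0.09, -0.07, -0.43 and -0.20. The fibronectin leucine-rich protein Flrt1 had the widest mean difference at 7 dpi among them (15.3, 2.26 and 1.51 CPM (Gli1+), 6.55, 2.08 and 1.31 CPM in Gli1-). Flrt3, of the same family, met the rule as higher at 7 dpi in Gli1- cells and was short of 2-fold in Gli1+ cells (7.77, 12.5 and 4.60 CPM (Gli1+), 2.32, 6.63 and 3.92 CPM in Gli1-). Of the 17 other FGF ligands, 9 to 11 had enough UMIs, with 2 higher and 7 lower in Gli1+ and 3 higher and 1 lower in Gli1- cells at 7 dpi, and 2 and 6 or 3 and 1 at 21 dpi, with medians of -1.63, -0.25, -1.18 and 0.11. Fgf1, which like Fgf2 lacks a signal peptide, was 18.9, 7.48 and 5.01 CPM (Gli1+) and 12.2, 9.43 and 7.08 CPM (Gli1-).

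The genes most like each member were ranked by Pearson's r of log2(CPM + 1) over 86 units, each 1 cluster in 1 library with at least 50 cells, so units of 1 library share its depth and preparation. The closest to Fgf7 were the fibrillar collagen gene Col5a1 (r = 0.86), Tmem119 (0.85) and the hyaluronan-binding protein gene Tnfaip6 (0.85). Those closest to Fgf2 were Naaladl2 (0.80), the receptor kinase gene Axl (0.78) and Gfpt2 (0.78), and those closest to Fgf18 were Cilp (0.73), Gask1a (0.73) and Axl (0.72), so Axl stood in both lists. Fgf9 had the weakest likeness among ligands, with Pik3r6 at 0.69. The closest to Fgf10 was Gm16263 (0.78), its antisense neighbour, whose reads may not be separable from it, then Tspan11 and Gdf10 (both 0.73). Among receptors, Fgfr1 was nearest to Mir99ahg (0.88), Clmp (0.85) and Pdpn (0.84), and Fgfr2 to Tacc2, the Hedgehog receptor gene Ptch1 and Lgr6 (all 0.66). Fgfr3 was nearest to the BMP-induced gene Id1 (0.76), Fgfr4 to Col19a1 (0.90), Calcr (0.80) and Pax7 (0.79), and Fgfrl1 to the chondroitin synthase gene Chsy3 (0.71).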

How the data were processed

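Per the labels, cells sorted from mouse Achilles tendon were prepared with the Chromium Single cell 3' v3 kit, and the submitters' processing notes name Cell Ranger 3.1.0, STAR and mm10, while the header of the deposited matrices names cellranger 9.0.0. The deposited values are raw UMI counts per gene and cell. Counts of 33696 genes were read from all 6 libraries.

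The genes and lists were chosen with earlier results of these data known. Cells with under 200 genes, under 1000 UMIs, log10 genes divided by log10 UMIs below 0.7, or over 5% of UMIs from mitochondrial or from haemoglobin genes were removed, after the filter the study states. Simulated-doublet scores then removed 0.8% of cells per 1000 recovered in each library (451 to 1160 cells), which left 57767 cells. Libraries shared 27 to 75 barcodes in pairs. Cells were clustered together on 2000 variable genes, without the 10 genes, the lists and the markers, with 30 components, 20 neighbours and Leiden resolution 0.5, and mixed clusters were divided again, which gave 39. Names rest on marker lists. Mesenchymal clusters are those named tendon stem cell-like, tenocyte-like, chondrocyte-like or bone-like, and unnamed ones that had at least 100 CPM of Pdgfra or were divided from a mesenchymal cluster. The thresholds (Pdgfra at 100 CPM in unnamed clusters, a marker at 20 CPM, the division of mixed clusters) were set after seeing the data. Several stem cell-like and tenocyte-like clusters had none of their markers among their 10 leading genes, and names rebuilt this way need not be those of the study.

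UMIs were summed per cluster or type and library and scaled to CPM. All 10 genes are named, and of each list the 4 with the widest mean difference at 7 dpi were eligible, of which some are named. On simulated counts for all 33696 genes, with 200 changed 4-fold, 100% were recovered for Gli1+ 7 dpi over uninjured, 0.502% of unchanged genes met the rule and 95.8% of intervals covered the true value. These counts were drawn with Poisson error alone, without differences between libraries, mice, sexes or mixes of cells. The check therefore covers counting error and not such differences. Python 3.11.15, scikit-learn 1.9.0, igraph 0.11.9 and, for TMM factors alone, edgeR 4.0.16 were used. Positions, overlaps and promoters come from GENCODE vM21 and RefSeq tables of GRCm38, matched by gene ID (95.0% of IDs) or symbol, and not from the files. One cluster without clear markers and the remaining small clusters were left out of the text.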

Additional observations from a re-analysis of the deposited data

Results flagged for a closer look

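In 3 cases the log2 ratio of an injured over the uninjured library had opposite signs in mesenchymal cells of the Gli1+ and Gli1- sorts, with both counting intervals clear of 0. Fgf9 at 21 dpi was -3.34 in Gli1+ and 0.48 in Gli1- cells. Fgfr2 was -0.13 in Gli1+ and 0.18 in Gli1- cells at 7 dpi, and -0.48 and 0.16 at 21 dpi. TMM scaling gave Fgfr2 ratios of 0.17 and 0.29 at 7 dpi, both above 0, and of -0.014 and 0.34 at 21 dpi, where the interval in Gli1+ cells included 0. The 6 basal epidermal markers summed to 26.7, 903 and 119 CPM inside Gli1+ mesenchymal cells (uninjured, 7 dpi, 21 dpi), and the part of epidermal RNA in Fgfr2 was not tested. Under TMM scaling Fgf9 was -2.88 and 0.67. Under other scaling, filters and cell sets the Gli1- ratio of Fgf9 at 21 dpi ran from -2.15 to 0.77, so its sign was not stable. In Gli1+ cells the Fgf9 ratio ran from -4.46 to -2.40. With 1 library per condition these differences between sorts were not tested, the Fgfr2 values are all short of 2-fold, and the Gli1- comparison at 21 dpi cannot be told apart from sex. No group had enough libraries to look for an outlying one.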

How the results depend on the processing

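No paired analysis was possible because each sort and time held 1 library, so that groups shared fewer than 2 replicate numbers and no library could be left out. A model of sort plus time, which would take their interaction as error, was not fitted. Of the log2 ratios of single genes in mesenchymal cells recomputed under other scaling, filters, clusterings and cell sets, 421 moved by less than their counting interval and 129 by more, and of those that met the rule 0 changed sign outside the tendon stem cell-like set given below. In Gli1+ cells at 21 dpi, TMM scaling gave 3 genes higher and 1 lower (15.3% and 13.2% of all genes), and all cells of the library, immune cells included, gave 3 higher (10.5%). In Gli1- cells at 21 dpi, all cells gave 1 higher and 3 lower (11.6% and 18.7%), and 2 were lower with doublets kept (17%) or with 20 components (17.3%). A threshold of 1.5-fold gave 5 lower in Gli1+ cells at 7 dpi (32.5% of all genes), 3 higher in Gli1+ cells at 21 dpi (12.8%), 1 higher in Gli1- cells at 7 dpi (22.1%) and 2 lower in Gli1- cells at 21 dpi (27.6%).

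Tendon stem cell-like cells alone were an alternative chosen after seeing the data. For Gli1+ they gave 0 higher and 1 lower at 7 dpi (51 cells there, 5.38% and 6.24% of all genes). At 21 dpi the Gli1+ counts were 0 and 3 (4.64% and 14.6%). For Gli1- they gave 0 and 0 at 7 dpi (5.86% and 6.75%), and 0 and 3 at 21 dpi (7.89% and 12%). Differences that met the rule and changed sign in these cells were those of Fgf7 (-0.53) and Fgf18 (0.15) in Gli1+ at 7 dpi, Fgf18 (0.44) in Gli1- at 7 dpi, Fgfr3 (-0.057) and Fgfrl1 (-0.44) in Gli1- at 21 dpi, and Fgfr3 (-0.38) for Gli1+ over Gli1- in uninjured tendon. These cells leave out the clusters that appeared after injury. Depth limits the low genes most. Fgfr4 rested on 36 to 100 UMIs per library in mesenchymal cells and Fgf9 on 55 to 82 in 3 of them.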
